A study of Rattus norvegicus with 10 samples.

Results

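The glycolytic enzymes of skeletal muscle were followed on every array through the probe sets that the platform annotation pairs with one of 10 listed genes and with no other gene: Gpi, Pfkm, Aldoa, Tpi1, Pgk1, Pgam2, Eno3, Pkm, Ldha and Gpd1. Of these, 9 genes had such a probe set (of 14217 genes with a probe set of their own), 14 probe sets in all among the 31042 of the series that are not array controls. Pkm had none, because its probe set is annotated with a pseudogene as well. After probe sets with a mean signal under 17.8 over the 10 arrays were left out, 15521 probe sets were tested, and 13 of the 14 were among them. The exception was a dim Pgk1 probe set (1368906_at, signals of 3.2 to 9.8), while a dim Pfkm probe set, 1384632_at (22.2 to 54.8), was kept. Each gene is represented below by its brightest probe set.

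Glycolysis splits glucose into pyruvate in the cytosol and yields ATP without oxygen. Fast-twitch fibres hold its enzymes among their most abundant proteins, several as muscle-specific isoforms, and use them for short, forceful contraction. Lactate dehydrogenase turns the pyruvate into lactate, and glycerol-3-phosphate dehydrogenase draws off a triose phosphate of the pathway and passes its electrons towards the mitochondria.

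The tissue was gastrocnemius, a fast-fibred muscle of the calf, from male Wistar rats that were about 6 weeks old when feeding began and were fasted for 16 h before collection. Rats received 5%, 10%, 20% or 30% less food (calorie restriction, CR) or the control ration, for 1 month or for 1 week. RNA of 5 rats was pooled for each of the 10 groups and hybridized to 1 array, so no group had a replicate, no difference between 2 arrays has a replicate check, and the spread in every test below is that between arrays of different CR levels. The grouping follows the array titles, which match the restriction labels. For the 1 week 5% CR array and the 1 week control array, a further description line gives the other ration. Several results at 1 week are therefore given with these arrays exchanged as well, and the others rest on the titles. A pool of whole muscle cannot tell fewer fibres of a kind from less RNA per fibre.

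Marker genes placed the samples as fast muscle. All 15 listed fast fibre markers were tested, with a mean log2 signal of 12.94, and their signals were 2776.6 or more on every array. At 1 week, Myh2 among them read 3370.8 on the control array and 5593.2 to 6604.3 on the restricted arrays. The highest of these was the 5% CR array, so with the 5% CR and control arrays exchanged all restricted arrays read below the control. Array-wide levels differed: the mean signal between the 2nd and 98th percentiles was 85.1 to 85.7 on the 1-month arrays and 98.4 to 98.9 on the 1-week arrays. The 18 probe sets for the hybridization controls (bioB, bioC, bioD and cre), transcripts that the array protocol adds to the labelled sample in fixed amounts and that do not come from the rat, were lower on all 4 restricted arrays than on the control array of 1 month, with median log2 ratios of −0.91, −0.55, −0.68 and −0.46 at 5%, 10%, 20% and 30% CR. At 1 week their medians were −0.15, −0.05, −0.07 and −0.10, and 9 of the 18 were lower on all 4 restricted arrays.

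Promoter sequences of 8 of the 10 listed genes, in 10 windows of 250 bases before to 50 bases after an annotated start, matched a RefSeq table of build GRCr8. The windows of 3 genes are shown because these genes were all lower on the restricted arrays of 1 month while their start regions differ: Ldha, the lactate dehydrogenase subunit made in many tissues, and the muscle isoforms Pgam2 and Eno3. They lie at chr1:106507842-106508141 (plus strand), chr14:84897825-84898124 (minus strand) and chr10:55868936-55869235 (plus strand). Capitals mark ACGTG, the core of the hypoxia response element, CAGCTG, a binding sequence of myogenic factors, and TATAAA, each on either strand, and overlapping matches run together.
Ldha promoter: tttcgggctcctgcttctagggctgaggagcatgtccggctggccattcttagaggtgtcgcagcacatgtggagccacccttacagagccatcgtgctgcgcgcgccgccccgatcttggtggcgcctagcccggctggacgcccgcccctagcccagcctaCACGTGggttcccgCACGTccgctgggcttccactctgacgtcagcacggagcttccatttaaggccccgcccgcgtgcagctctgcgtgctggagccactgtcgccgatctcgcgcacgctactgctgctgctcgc
Pgam2 promoter: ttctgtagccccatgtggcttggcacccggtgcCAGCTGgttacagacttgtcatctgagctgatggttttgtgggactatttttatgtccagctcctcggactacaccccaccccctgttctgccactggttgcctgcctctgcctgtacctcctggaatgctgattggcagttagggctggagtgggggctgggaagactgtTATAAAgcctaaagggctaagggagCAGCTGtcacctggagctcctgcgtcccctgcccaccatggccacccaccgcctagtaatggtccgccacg
Eno3 promoter: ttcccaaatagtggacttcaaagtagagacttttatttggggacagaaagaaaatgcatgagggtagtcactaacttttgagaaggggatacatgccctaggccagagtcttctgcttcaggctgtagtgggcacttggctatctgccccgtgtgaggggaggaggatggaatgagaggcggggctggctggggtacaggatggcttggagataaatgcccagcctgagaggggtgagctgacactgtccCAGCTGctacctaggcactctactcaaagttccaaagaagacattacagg

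The Ldha window held ACGTG 3 times, counting both strands, and a pair of these overlapped as CACGTG. The Pgam2 window held CAGCTG in 2 places and TATAAA once, and the Eno3 window held CAGCTG once, at the annotated start. Among all 33469 promoter windows of the table, 19.3% held ACGTG, 15.1% held CAGCTG and 14.2% held TATAAA. Of the 8 genes matched, 4 had ACGTG in a window (Gpi, Pfkm, Aldoa and Ldha), 4 had CAGCTG (Gpi, Aldoa, Pgam2 and Eno3) and 1 had TATAAA. A match describes the letters in the window and nothing of what binds there.

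All of the enzymes except Gpd1 were lower on all 4 restricted arrays than on the control array after 1 month, and close to or slightly above it after 1 week. The median log2 ratio of the 9 genes to control was −0.53, −0.31, −0.28 and −0.23 at 5%, 10%, 20% and 30% CR for 1 month, and 0.06, 0.10, 0.10 and 0.13 for 1 week. Over all tested probe sets these medians were −0.01 to −0.02 at 1 month and 0 to 0.02 at 1 week. The lowest value came at the mildest level of restriction, and the 5% CR array at 1 month was the lowest of the 10 for each of the 9 genes. The direction at 1 month depended on the scaling: relative to the hybridization controls the same medians were 0.38, 0.24, 0.40 and 0.22. After quantile normalization they were 0.03, 0, 0.01 and −0.01. This method gives equal ranks the same value on every array. For enzymes at brightness ranks 3 to 154 it leaves little room for a ratio away from 0. The medians were −0.34, −0.22, −0.20 and −0.18 after cyclic loess, and −0.40, −0.14, −0.24 and −0.16 after centring on the array median. At 1 week they were 0.14 to 0.23 relative to the hybridization controls, −0.03 to 0 after quantile normalization and 0.04 to 0.09 after cyclic loess. They were −0.14 to 0.12 after centring on the array median, and −0.06 to 0.06 with the 5% and control arrays exchanged.

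**Figure D1:**
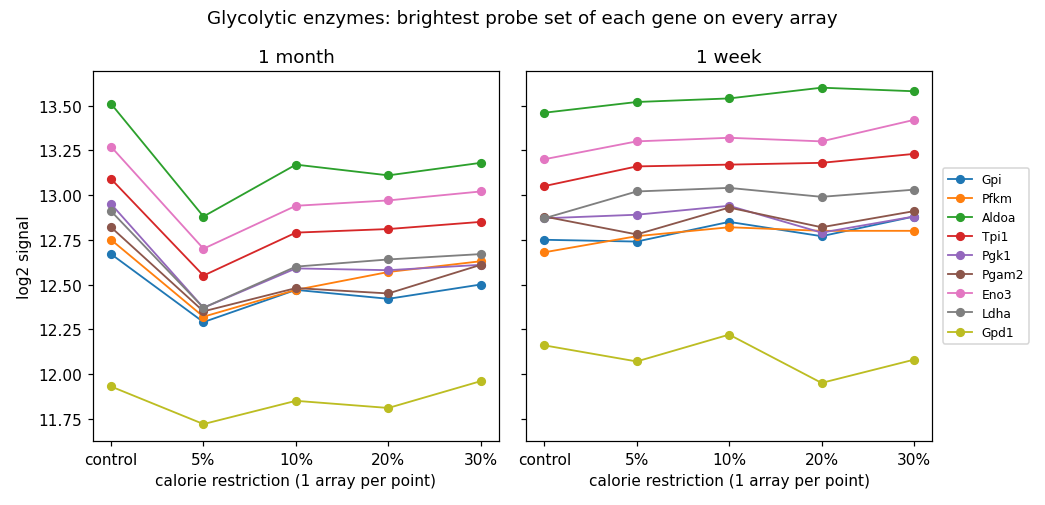
Log2 signal of the brightest probe set of each of the 9 genes (vertical axis) at each level of calorie restriction (horizontal axis), at 1 month (left) and 1 week (right); each point is 1 array of RNA pooled from 5 rats, so there are no error bars. At 1 month the lines dip together at 5% CR, and Gpd1, the lowest line, dips least, to 11.72 against 11.93 on the control array.

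The upper part of the pathway carried hexose to triose phosphate. Gpi, the isomerase that turns glucose 6-phosphate into fructose 6-phosphate, had signals of 6514.7 on the control array and 5002.3, 5675.8, 5479.8 and 5800.5 at 5%, 10%, 20% and 30% CR at 1 month. At 1 week it had 6908.7 on the control array and 6824.3, 7382.3, 6973.9 and 7550.7 at the same levels. All 4 restricted arrays were thus below the control at 1 month, and they lay on both sides of it at 1 week.

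Pfkm is the muscle form of phosphofructokinase, the main control step of glycolysis. Its brightest probe set (1367864_at) read 6881.5 on the control array and 5109.3, 5691.1, 6074.9 and 6341.7 with rising restriction at 1 month, and 6549.3 and then 6994.5, 7217.3, 7124.4 and 7155.6 at 1 week. A second bright probe set of the gene (1386961_at) lay on the same side of the control, with ratios of −0.25 to −0.06 at 1 month and 0.07 to 0.27 at 1 week. The dim probe set 1384632_at ranged from −0.29 to 0.40 at 1 month and from −0.35 to 0.72 at 1 week, with both signs at each.

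Aldoa, the aldolase that splits fructose 1,6-bisphosphate, was the brightest of the enzymes, with brightness rank 3 among all probe sets. It read 11640.8 on the control array and 7531.8, 9186.5, 8870.4 and 9299.9 at 5%, 10%, 20% and 30% CR at 1 month. At 1 week it read 11251.6 and then 11753.8, 11923.1, 12384.5 and 12216.7. The restricted arrays were all below the control at 1 month and all above it at 1 week, by log2 ratios of −0.63 to −0.32 and of 0.06 to 0.14. Tpi1, which interconverts both triose phosphates, followed the same pattern, with 8700.7 on the control array and 6016.4, 7105.8, 7175.2 and 7398.6 on the restricted arrays at 1 month, and log2 ratios of 0.11 to 0.18 at 1 week.

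In the lower part of the pathway, Pgk1, the kinase that makes the first ATP, read 7892.7 on the control array and 5288.2, 6149.7, 6133.1 and 6251.5 with rising restriction at 1 month. Its ratios at 1 month (−0.58 to −0.34) were lower than those of its second probe set, 1387361_s_at (−0.37 to −0.11), and at 1 week both straddled 0 (−0.07 to 0.07 and −0.01 to 0.12). Pgam2, the muscle phosphoglycerate mutase with 2 CAGCTG matches in its window, read 7232.3 on the control array and 5232.3, 5709.5, 5580 and 6242.4 on the restricted arrays at 1 month, with ratios of −0.10 to 0.05 at 1 week. Eno3, the muscle enolase, read 9903.4 and then 6663.7, 7842.9, 8011.6 and 8331.9 at 1 month, and its ratios at 1 week were 0.10 to 0.22.

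Ldha, whose window holds ACGTG, read 7697.8 on the control array and 5289, 6204.8, 6364.1 and 6506 with rising restriction at 1 month. At 1 week it read 7501.6 and then 8305.5, 8408.3, 8154.8 and 8391.3, a set of ratios from 0.12 to 0.16. All 4 restricted arrays lay on the same side of the control at each duration. Below the control on all 4 restricted arrays at 1 month were 8 of the 9 genes, against 28.1% of all tested probe sets and 83 (92.2%) of the 90 probe sets among the 100 brightest that are not enzymes of the list. Above the control on all 4 restricted arrays at 1 week were 5 of the 9 (Pfkm, Aldoa, Tpi1, Eno3 and Ldha), against 23.9% of all tested and 68 (75.6%) of the 90 bright ones. The same 5 genes met both conditions, as did 5.21% of all tested and 64 (71.1%) of the 90. At 1 week these 5 genes read higher on the 5% CR array than on the control array. With those arrays exchanged they no longer lie above the control on all 4, while Gpi and Pgam2 do.

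Pkm and Gapdh fell outside the rule, since each bright probe set carries a second gene symbol, and their ratios are given for completeness only. The Pkm probe set ranged from −0.46 to −0.15 at 1 month and from 0.02 to 0.16 at 1 week. The Gapdh probe set ranged from −0.64 to −0.29 at 1 month and from 0.07 to 0.19 at 1 week. On 3 further Gapdh probe sets that the array carries as quality controls, the ratios were −0.63 to −0.27 at 1 month, and the signal ratio of the 3' to the 5' one was 1.02 to 1.08 on all 10 arrays.

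By the brightest probe set of each gene, Gpd1 had the ratios nearest 0 at 1 month, though the second bright Pfkm probe set had −0.25 to −0.06. It encodes the cytosolic glycerol-3-phosphate dehydrogenase, and its brighter probe set (1371363_at) read 3889.8 on the control array and 3362.6, 3683.7, 3589.1 and 3994.3 with rising restriction at 1 month, so that the 30% CR array lay above the control. Its dimmer probe set (1369560_at) read 837.6 on the control array and 1056, 1048.6, 960.8 and 987.5 on the restricted arrays at 1 month, all above the control by ratios of 0.20 to 0.33. At 1 week the dimmer probe set read 1219 and then 1118.6, 1063.3, 1209.6 and 1211, all below the control by ratios of −0.20 to −0.01. Both probe sets lay above the upper quartile of the 50 probe sets of nearest brightness at 5%, 10% and 30% CR for 1 month, and the dimmer one at 20% CR too. Against the 200 nearest, the brighter probe set lay above the upper quartile only at 30% CR, and the dimmer one at every level. Across the 10 arrays, with each duration centred on its mean, log2 Gpd1 had a Pearson r of 0.557 with the mean of the other enzymes, while the other 8 genes had 0.915 to 0.970. These points share their arrays and the scaling of each array.

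Fat cells also express Gpd1. Of 8 adipocyte markers listed, 7 had a probe set and 4 were tested, and their summed signal was 1850 to 2200 on the restricted arrays and 1460 on the control array at 1 month, and 1810 to 2430 on the restricted arrays and 1620 on the control array at 1 week. Of the 4, 2 passed as rising with the level of CR, as did 0.941% of all tested probe sets. These 2 were Cfd, the secreted protease adipsin, with a slope of 0.43 ± 0.07 per 10 percentage points (limma, adjusted p = 0.00802), and Plin4, a lipid droplet coat, with 0.21 ± 0.04 (adjusted p = 0.00934). Their log2 ratios at 1 month were 0.69 to 1.61 for Cfd and 0.38 to 0.75 for Plin4. Fabp4 did not pass, with ratios of 0.19 to 0.31 at 1 month. The summed signal is mostly that of Plin4 and Fabp4, with 797.1 and 601 on the control array of 1 month against 51.4 for Cfd. Adipoq, the hormone that defines these cells, had signals of 11.9 to 20.6 on the restricted arrays and 13 on the control array at 1 month, and 15.2 to 39.3 on the restricted arrays and 15 on the control array at 1 week (slope 0.32 ± 0.10, adjusted p = 0.134). The part of fat cells in the Gpd1 values was not tested.

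With limma, none of the 9 enzymes passed an adjusted p of 0.05 in any contrast of restricted with control arrays. For restricted against control over both durations the count was 0 of 9, where 2.0% of all tested probe sets passed, and 2 of the 9 had an unadjusted p below 0.05, as had 14.2% of all tested. At 1 month it was 0 of 9 against 0.174% of all tested, but 8 of the 9 had an unadjusted p below 0.05, as had 12.3% of all tested. The median estimate of the 9 was −0.34 on the log2 scale against −0.02 over all tested probe sets. The 15 fast fibre markers, with a mean log2 signal of 12.94, had a lower median of −0.39. Most of these markers had an unadjusted p below 0.05 too, and 0 passed. Aldoa had −0.42 ± 0.11 (SE, limma over 10 arrays, adjusted p = 0.114), or 0.747-fold, and Pgk1 had −0.41 ± 0.10 (adjusted p = 0.111). Pgam2, Eno3, Ldha and Tpi1 had −0.35, −0.37, −0.34 and −0.33, with adjusted p from 0.166 to 0.206. Gpi and Pfkm had −0.25 each, with adjusted p of 0.304 and 0.343. Gpd1 had −0.09 ± 0.11 at its brighter probe set (95% interval −0.33 to 0.15) and 0.27 ± 0.10 at its dimmer one (adjusted p = 0.279). Under quantile normalization, which leaves little room for a change at this brightness, the estimates of Eno3, Pfkm and Tpi1 turned to 0.03, 0.02 and 0.06.

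At 1 week 0 of 9 passed, against 0.734% of all tested, and 0 had an unadjusted p below 0.05. The median estimate was 0.10 against 0 over all tested, and the 95% intervals left room for changes of either sign, for example −0.13 to 0.33 for Aldoa and −0.08 to 0.37 for Ldha. The difference between durations, tested as an interaction, passed for 0 of 9 enzymes and for 0% of all tested probe sets, with 1121 of 15521 at an unadjusted p below 0.05 and 8 of the 9 enzymes among them. Its median was −0.42 over the 9 genes against −0.02 over all tested and −0.49 over the 15 fast fibre markers. It was −0.52 ± 0.15 for Aldoa (adjusted p = 0.472) and −0.01 ± 0.16 for Gpd1 (adjusted p = 0.994).

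No slope on the level of restriction passed for an enzyme. With limma, the slope per 10 percentage points of CR passed for 0 of 9, against 2.0% of all tested, with 0 of 9 at an unadjusted p below 0.05, and the median slope was 0.01. Slopes lay between −0.03 (Pgk1) and 0.02 (Pfkm, Tpi1 and Eno3), and for Aldoa the 95% interval was −0.09 to 0.09. At 1 month the order of the arrays was 5% CR lowest and control highest for 8 of the 9 genes, so the level did not run in order of restriction.

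Other bright probe sets were lower on the restricted arrays of 1 month too. With 2 enzyme probe sets left out, 21 tested probe sets had a mean log2 signal of 13 or more. Their median ratios at 1 month were −0.64, −0.35, −0.37 and −0.29 with rising restriction. Among the 2616 with a mean between 8 and 10 these medians were 0.03, 0.03, 0.01 and 0. Of the 50 brightest probe sets, 8 were enzymes of the list and 12 fast fibre markers. With these enzymes left out, the medians at 1 month were −0.60, −0.32, −0.35 and −0.24. The 15 fast fibre markers had −0.62, −0.34, −0.37 and −0.27. At 1 week the 50 brightest, again without the enzymes, had medians of 0.07, 0.11, 0.09 and 0.14.

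**Figure D2:**
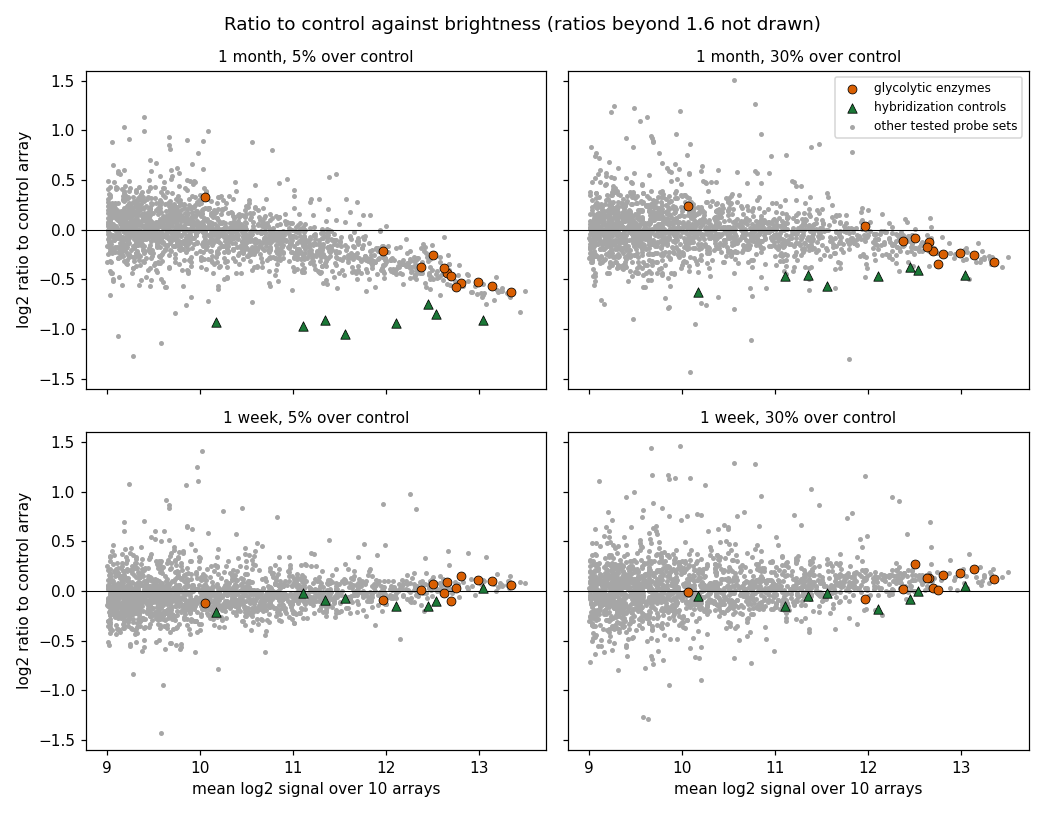
Log2 ratio of the 5% CR (left) and 30% CR (right) array to the control array (vertical axis) against the mean log2 signal over 10 arrays (horizontal axis), at 1 month (upper panels) and 1 week (lower panels), for tested probe sets with a mean of 9 or more; each point is 1 probe set, orange for glycolytic enzymes, green triangles for hybridization controls, and points beyond 1.6 are not drawn. At 1 month the grey cloud bends down towards the bright end and the enzymes lie along it, while the hybridization controls lie below it at every brightness, with a median of −0.91 at 5% CR.

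The enzymes themselves showed this gradient. Over the 12 enzyme probe sets that are not dim, the ratio at 1 month was lower the brighter the probe set, with a Pearson r of −0.97, −0.94, −0.90 and −0.92 at 5%, 10%, 20% and 30% CR. Without both Gpd1 probe sets, r over the remaining 10 was −0.82, −0.62, −0.71 and −0.75. At 1 week r over the 12 was 0.36 to 0.83 and, without Gpd1, −0.27 to 0.36. The probe sets share their arrays, and a pair for 1 gene shares its transcript.

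Set beside probe sets of equal brightness, the difference of the enzymes depended on how many neighbours were taken. Against the 50 probe sets nearest in mean signal, the median difference of the 9 genes at 1 month was −0.01, −0.04, −0.02 and −0.02 with rising restriction, and 7, 6, 6 and 5 of the 9 lay within the quartiles of those neighbours. Against the 200 nearest it was −0.18, −0.11, −0.10 and −0.11, and against the 500 nearest −0.29, −0.18, −0.17 and −0.16. The wider bands reached further down in brightness: for Aldoa only 2 probe sets of any band were brighter, and its 50, 200 and 500 neighbours had a mean log2 signal of 12.93, 12.30 and 11.65 against 13.35 for Aldoa itself. At 1 week the median difference was −0.01 to 0.02 with 50 neighbours and 0.01 to 0.05 with 200.

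With 50 neighbours, the bright Pgk1 probe set lay below their lower quartile at all 4 levels for 1 month, with differences from their median of −0.16 to −0.11 in log2 ratio, while the second Pgk1 probe set had differences of −0.01, −0.01, 0.06 and 0.02 and lay above the upper quartile at 20% CR. Pgam2 lay below at 10% and 20% CR, Aldoa at 20% and 30% CR and Ldha at 30% CR. With 200 neighbours, Aldoa, Pgk1, Eno3 and Ldha lay below the lower quartile at all 4 levels, again by their brightest probe sets. With 50 neighbours, Gpd1 lay above their median, by 0.09, 0.09, 0.03 and 0.11 at its brighter probe set and by 0.31, 0.29, 0.18 and 0.25 at its dimmer one. The second bright Pfkm probe set (1386961_at) lay above their median too, by 0.16, 0.16, 0.11 and 0.07. It was above their upper quartile at 5%, 10% and 20% CR, while the brightest Pfkm probe set lay within the quartiles at all 4 levels. These differences compare single arrays and have no test.

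**Figure D3:**
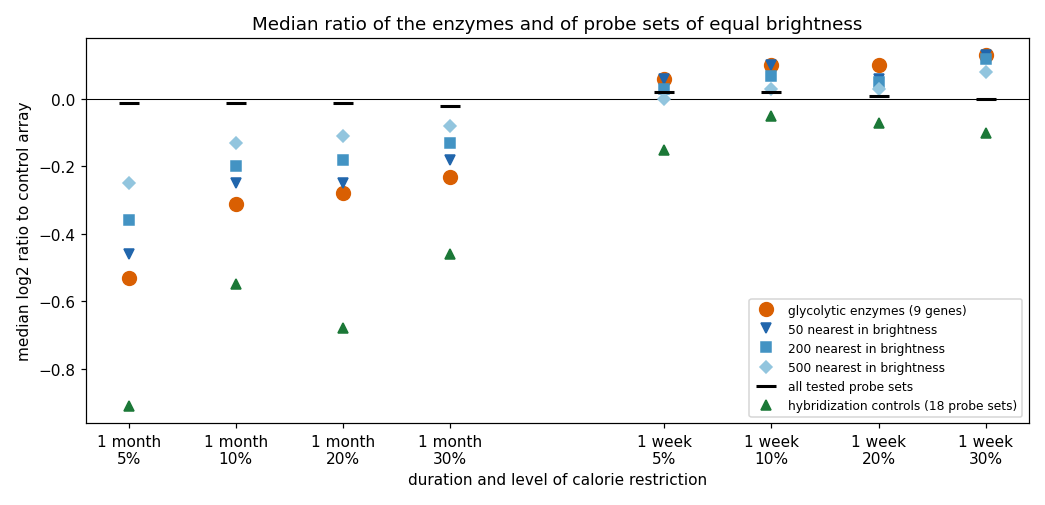
Median log2 ratio to the control array (vertical axis) in each of 8 comparisons (horizontal axis, 1 month left and 1 week right): orange circles are the 9 enzymes, blue symbols the 50, 200 and 500 probe sets nearest to each enzyme in brightness, black bars all tested probe sets and green triangles the 18 hybridization controls. At 5% CR for 1 month the enzymes lie at −0.53, their 50 nearest neighbours at −0.46, all probe sets at −0.01 and the hybridization controls at −0.91.

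The probe sets whose pattern was most like that of the enzymes, outside all lists, were those of other abundant genes. By Pearson r with the mean of the enzymes over 10 arrays, each duration centred, they were the probe set annotated as COX2 by gene symbol in the platform table (r = 0.991), Mrpl51, a mitochondrial ribosome protein (0.988), Atp5mc3, a subunit of ATP synthase (0.986), Acta1, the skeletal muscle actin (0.985), and Tpm1, a tropomyosin (0.983). Of these, 4 were among the 100 brightest probe sets and Mrpl51 was at rank 1323, with ratios of −0.35, −0.21, −0.21 and −0.13 at 1 month.

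All 9 enzymes were lower at 1 month than at 1 week in the fit that adjusts for CR level, but so were many other genes. With limma 9 of 9 passed as lower, against 32.8% of all tested probe sets and 82 (91.1%) of the 90 bright ones, and the median was −0.33 against −0.21 over all tested. Estimates ranged from −0.37 ± 0.09 for Aldoa (SE, adjusted p = 0.00741) to −0.23 ± 0.07 for Pfkm (adjusted p = 0.0284). After the arrays were brought to a common scale, 0 of 9 passed and the signs were mixed, with estimates of −0.04 to 0.08 under quantile normalization, −0.08 to 0.07 under centring on the array median and −0.12 to 0.01 under cyclic loess. The control arrays by themselves did not show the difference: the median over the 9 genes was 0.04 between the control arrays of 1 month and 1 week and −0.39 between the means of the restricted arrays, against −0.19 and −0.22 over all tested probe sets.

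Other genes of the pathway had their own patterns. Of 20 other glycolytic genes listed, 15 had a probe set of their own and 11 were tested. For restricted against control 1 of the 11 passed, where 2.0% of all tested probe sets did. It was Gpd2, the mitochondrial glycerol-3-phosphate dehydrogenase that works together with Gpd1. Gpd2 read 230.3 on the control array and 183.9, 183.2, 164 and 146.5 with rising restriction at 1 month, and 345.5 and then 244.4, 247.3, 191 and 184.5 at 1 week. All 8 restricted arrays were below their control, and the values fell with the level except for 5% and 10% CR, which were nearly equal at each duration.

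Gpd2 was 0.675-fold on the restricted arrays (log2 −0.57 ± 0.13, limma, adjusted p = 0.0335) and had a slope of −0.23 ± 0.04 per 10 percentage points of CR (adjusted p = 0.00832), where the enzymes of the list had slopes near 0. Over the alternatives the slope ranged from −0.27 to −0.16, and its adjusted p was 0.128 over the 8 restricted arrays alone, 0.0746 and 0.279 within 1 week and 1 month, 0.0524 with the 1 week 5% CR and control arrays exchanged, 0.0579 with eBayes without trend and 0.0519 without the 1 week 30% CR array. The estimate of −0.57 became −0.45 (adjusted p = 0.322) without the 1 week control array, −0.69 (adjusted p = 0.115) without the 1 month control array and −0.26 (adjusted p = 0.665) with the arrays exchanged. It also missed the threshold without either 20% CR array (adjusted p = 0.055 and 0.0587), with means over probe sets (0.0642), after median centring (0.0527) and with eBayes without trend (0.119).

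Ldhb encodes the lactate dehydrogenase subunit of heart and slow fibres. It read 667.1 on the control array and 417.8, 350.5, 624.4 and 630.3 at 1 month, and 218.7 and then 742.2, 441.9, 603.1 and 726.5 at 1 week, so the 1-week control array was the lowest of all 10. At 1 week its estimate was 1.49 on the log2 scale (limma, adjusted p = 0.0388), and −0.71 (adjusted p = 0.955) with the 5% CR and control arrays exchanged. The slow fibre markers moved with it: all 11 were tested, 10 of them were lowest on the 1-week control array among the 5 arrays of that duration, and their summed signal was 8130 to 18200 on the restricted arrays and 4190 on the control array. With the arrays exchanged, the summed signal of the slow fibre markers was 14900 on the control array and 4190 to 18200 on the restricted arrays. The part of fibre composition in the Ldhb value was not tested.

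**Figure D4:**
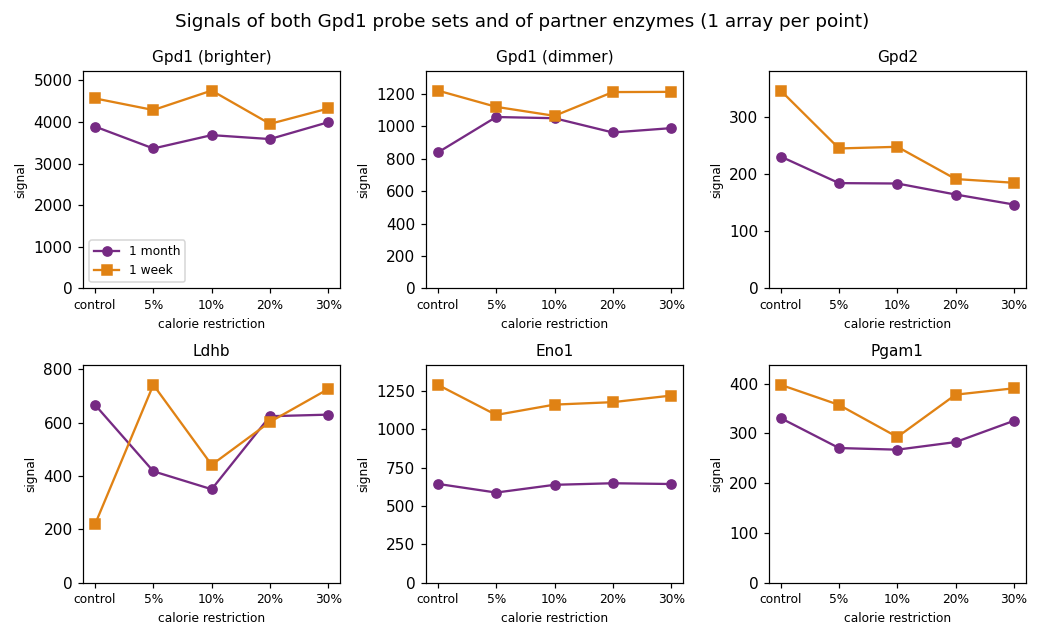
Signals (vertical axes, linear, from 0) of both Gpd1 probe sets, Gpd2, Ldhb, Eno1 and Pgam1 at each level of calorie restriction (horizontal axes), with 1 month as purple circles and 1 week as orange squares; each point is 1 array of RNA pooled from 5 rats. Gpd2 declines with restriction at both durations, Ldhb is lowest on the 1-week control array at 218.7, and Eno1 lies at 588.1 to 648.9 at 1 month, below all values of 1 week.

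The non-muscle partners of the enzymes were dimmer. Eno1, the enolase of most tissues, read 644.6 on the control array and 588.1, 638.6, 648.9 and 643.9 at 1 month, and 1291.2 and then 1094.6, 1162, 1178 and 1220.9 at 1 week. Its estimate for 1 month against 1 week was −0.91 ± 0.06 on the log2 scale (limma, adjusted p = 4.25e-07), and it stayed past the threshold under each alternative run, with −0.62 after centring on the array median. Pgam1, the partner of Pgam2, read 330.9 on the control array and 267.4 to 325.5 on the restricted arrays at 1 month. Hexokinase 2 (Hk2), the muscle form of the first enzyme, had an estimate of 0.10 ± 0.16 at 1 month and 0.12 ± 0.16 at 1 week (adjusted p = 0.859 and 0.868). Pfkl and Pfkp, the liver and platelet phosphofructokinases, had signals of 43.8 or less on all arrays, and Aldoc was too dim to be tested.

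Supply and exit of the pathway were read from lists of glycogen enzymes, of the steps that take up pyruvate or carry lactate, and of gluconeogenic enzymes. None of 12 tested glycogen genes, 8 exit genes and 2 gluconeogenic genes passed at 1 month with limma, where only 0.174% of all tested probe sets did. Pygm, the muscle phosphorylase that breaks down glycogen, had −0.36 ± 0.12 (limma, adjusted p = 0.252). Ppp1r3d of the same list went the other way, with 0.57 ± 0.27 (adjusted p = 0.422). Pdhb and Mpc1, of pyruvate dehydrogenase and the mitochondrial pyruvate carrier, had −0.30 ± 0.08 (adjusted p = 0.139) and −0.32 ± 0.09 (adjusted p = 0.157). Fbp2, the muscle bisphosphatase that runs against Pfkm, had 0.35 ± 0.13 (adjusted p = 0.279). The median at 1 month was −0.06 for the glycogen list, −0.25 for the exit list and −0.34 for the enzymes, against −0.02 over all tested. For duration, 8 of 12, 7 of 8, 1 of 2 and 5 of 11 passed as lower in the glycogen, exit, gluconeogenic and other glycolytic lists, against 32.8% of all tested probe sets.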

How the data were processed

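The authors scaled each array with MAS5, per the labels, and deposited 1 signal intensity per probe set and array on a linear scale, with no detection calls in the table used here. Intensities under 0.1 were set to 0.1 and taken to log2, the 57 array controls were dropped, and probe sets at or above the 50th percentile of mean log2 signal were tested. Genes came from the platform annotation, updated through RefSeq where the identifier matched: 20826 probe sets carried 1 gene, 436 several and 9780 none. All 10 arrays entered 1 model in limma 3.58.1 under R 4.3.3, using lmFit and eBayes with trend, with duration as a factor (level as a covariate for duration) and Benjamini-Hochberg adjustment over the 15521 tested probe sets at 0.05. The number of arrays limits the precision. Residual degrees of freedom were 6 or 7 and came from arrays of different levels, so p-values measure that spread only.

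Equal brightness means the 200 (or 50, or 500) tested probe sets nearest in mean log2 signal, enzymes of the list left out, and serves as a description. The genes and lists were chosen with earlier results of these data known. All listed enzymes were named, with fixed isoform partners, and from other lists at most 4 passing genes, or else the 2 of smallest p. The fit was tested on simulated data in which chosen probe sets had been shifted. Alternatives were other normalizations, filters and log scales, eBayes without trend, the exchange of the 1-week 5% CR and control arrays, means over probe sets, other bands, the level as a block, and leaving out each array. Scaling to the hybridization controls was added after the data were seen.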

Additional observations from a re-analysis of the deposited data

Results flagged for a closer look

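For 7 probe sets of the enzymes, the restricted arrays all lay on one side of the control at 1 month and all on the other side at 1 week. The estimate at 1 month minus that at 1 week was −0.52 for Aldoa, −0.50 for Eno3, −0.49 for Ldha, −0.47 for Tpi1 and, for both bright Pfkm probe sets, −0.37 (1367864_at) and −0.31 (1386961_at), all on the log2 scale, and each of these was below the control at 1 month and above it at 1 week. The dimmer Gpd1 probe set (1369560_at) ran the other way, with 0.36. Of all tested probe sets, 5.21% were above the control at 1 week and below it at 1 month on all 4 arrays. So were 64 (71.1%) of the 90 bright probe sets that are not enzymes of the list. With the 1-week 5% CR and control arrays exchanged, the change of side is lost for all 7. None of the 7 passed the interaction test in limma (adjusted p from 0.472 to 0.687). Under quantile normalization the difference was 0.01 for Aldoa, 0.04 for Eno3, 0.01 for Pfkm and 0.05 for Tpi1. Each group had 1 array, so no array could be called an outlier within its group.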

How the results depend on the processing

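No paired analysis was possible for the contrasts of restricted with control because each group had 1 array and the labels give no replicate numbers. For duration, the level as a block gave 4865 probe sets and 9 enzymes. The median ratio of the enzymes, taken over the 4 levels, was −0.29 at 1 month and 0.10 at 1 week, and became 0 and −0.02 under quantile normalization, 0.31 and 0.19 relative to the hybridization controls, and at 1 week −0.02 after median centring and 0.03 with the 1-week 5% CR and control arrays exchanged. Their median difference from the 200 nearest probe sets was −0.11 at 1 month and 0.03 at 1 week. It became −0.02 and 0 with 50 neighbours, −0.17 and 0.06 with 500, 0.01 and −0.01 under quantile normalization, and −0.02 at 1 week with the arrays exchanged.

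The count of enzymes passed stayed at 0 under every alternative for the contrasts of restricted with control and for the dose trend. For duration it was 9, was 0 under quantile normalization, median centring and cyclic loess, and was 7 to 9 without 1 array. Over all probe sets, 311 passed for restricted against control, with 1 with the arrays exchanged, 77 with eBayes without trend and 27 to 455 without 1 array (27 when the 1-week control was left out and 112 when the 1-month control was). At 1 month 27 passed, with 0 with the arrays exchanged, 16 with means over probe sets, 9 with no filter, 1 without trend and 5 to 103 without 1 array (103 without the 1-week 5% CR array, 79 without the 1-week 30% CR array, 13 without the 1-week 20% CR array, 46 without the 1-month 30% CR array and 5 to 7 without another restricted array of 1 month). At 1 week 114 passed, with 3 with the arrays exchanged, 33 without trend and 50 to 156 without 1 array (50 without the 1-week 20% CR array, 75 without the 1-month 10% CR array). For the difference between durations 0 passed, with 2 under the 70th percentile filter, means over probe sets and quantile normalization, 1 under cyclic loess and 0 to 26 without 1 array (26 without the 1-week 10% CR array). For the dose trend 310 passed, with 6 at 1 month alone, 109 at 1 week alone, 161 with the arrays exchanged, 196 after median centring, 38 over the restricted arrays alone, 73 without trend and 86 to 368 without 1 array (86 without the 1-week 30% CR array, 117 and 123 without the 1-week and the 1-month control, 185 without the 1-week 20% CR array). For duration 5263 passed, with 1565 under cyclic loess, 1365 after median centring, 1575 under quantile normalization and 4402 to 4932 without 1 array.

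Estimates that changed sign were uncalled under the alternative. At 1 month these were, under quantile normalization, Eno3 (0.03), Gpd1 (0.08), Pfkm (0.02) and Tpi1 (0.06), and for Gpd1 also means over probe sets (0.09) and median centring (0.01). In the difference between durations they were, under quantile normalization, Aldoa (0.01), Eno3 (0.04), Gpd1 (0.19), Gpi (0.04), Pfkm (0.01), Pgam2 (0.06) and Tpi1 (0.05), and for Gpd1 also cyclic loess (0.07), means over probe sets (0.17), median centring (0.20) and −0.06 to 0.03 without 1 array. For duration they were Aldoa (0.01), Eno3 (0.03), Gpd1 (0.02), Pfkm (0.08) and Pgk1 (0.04) under quantile normalization, Gpd1 (0.05), Pfkm (0.07) and Pgk1 (0.04) after median centring, and Pfkm (0.01) under cyclic loess. Ldhb at 1 week was −0.71 with the arrays exchanged, and its adjusted p of 0.0388 was 0.0502 to 0.187 under means over probe sets, no filter, quantile normalization, no trend and without the 1-week 5%, 20% or 30% CR or the 1-month 5% CR array. The duration calls of Pfkm and Pgk1 were lost with no filter and no trend (adjusted p from 0.0719 to 0.0763) and without most single arrays (0.0519 to 0.0778), and that of Pfkm also with means over probe sets (−0.05, adjusted p = 0.614). The cause of these changes was not tested. Depth cannot be given for arrays, and the dim probe sets of Pfkm and Pgk1 limit what they show.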
